A study of Mus musculus with 22 samples.

Results

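The genes described here are 6 EIF1A-like genes of mouse chromosome 12, Gm5662, Gm2016, Gm2022, Gm4027, BB287469 and Gm8300, out of 55487 genes listed in each of 2 deposited expression tables. They were taken by name, as the rows of both tables whose Ensembl identifiers carry these symbols in GENCODE M21, and all 6 were found and passed the filter on low values in both tables. RNA was measured in Dux-/- mouse embryonic stem cells (mESCs) grown in 2iLIF, the medium with a pair of kinase inhibitors and the cytokine LIF that keeps such cells in the naive pluripotent state. Cells had 24 hours to recover from plating and then 12 hours of doxycycline at 0.25 ug/mL, in every group, the control included. The lines express the red fluorescent protein mCherry by itself, or fused to full-length DUX or to a DUX derivative. The mouse Dux gene encodes a homeodomain transcription factor of the early embryo that switches on genes of the 2-cell stage.

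Groups are called by the names in the labels, which do not spell out their parts. In FL the tag is joined to the full-length protein, and in mCherry it is expressed by itself. C3+14, C1+14, C1C3a, C1C3b and C1C3c are tagged derivatives that share the first of the 2 tables, called the chimera table here, with FL and mCherry. C12345delt14, deltC12345+14 and deltC12345delt14 are tagged derivatives that share the second, the deletion table, with the same FL libraries. Each group has 2 replicates, and the 20 libraries used belong to 10 of the 11 groups of the series. C3delt14 was not analysed here. The labels do not say whether replicates came from separate cultures or whether a line is 1 clone, so the p-values measure only the spread between these samples, which may be technical.

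EIF1A is a translation initiation factor that binds the small ribosomal subunit and takes part in scanning and in the choice of the start codon. The mouse has the widely expressed genes Eif1a and Eif1ax, and in addition a set of copies with uninterrupted coding sequence whose transcripts are known from the 2-cell embryo and from the rare 2-cell-like cells of mESC cultures. The 6 genes belong to that set. By translation of the GENCODE M21 coding sequences, each encodes 144 amino acids, and the coding sequence of each lies within 1 exon. Identity over the aligned part was 90.3% to 93.8% to mouse EIF1AX and 91.7% to 95.1% to mouse EIF1A, higher to EIF1A for each member. In all, 16 such genes lie within 829 kb of chromosome 12 (GRCm38, 87494721 to 88324026), the 6 described here and 10 others.

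In GRCm38 coordinates of chromosome 12, Gm8300 (ENSMUSG00000079034) spans 87514316 to 87518266, Gm4027 (ENSMUSG00000092019) 87618869 to 87622955, and BB287469 (ENSMUSG00000079031) 87816577 to 87820676. Gm2016 (ENSMUSG00000072905) spans 87874072 to 87877859 and Gm2022 (ENSMUSG00000113971) 87895370 to 87895804, and these 5 genes lie on the plus strand. Gm5662 (ENSMUSG00000079029) lies on the minus strand, 88270640 to 88274500. All are annotated as protein coding with 1 transcript each, of 2 exons for 5 genes and of 1 exon of 435 bases for Gm2022, whose model has no exon beyond the coding one.

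How alike the copies are bears on every value below, so a stretch of 60 coding bases is shown for each gene, coding positions 231 to 290 counted from the first base of the start codon. Capitals mark the bases that differ from Gm5662. The stretch lies at chr12:88271699-88271758 (minus) in Gm5662, chr12:87876815-87876874 in Gm2016, chr12:87895600-87895659 in Gm2022, chr12:87621830-87621889 in Gm4027, chr12:87819551-87819610 in BB287469 and chr12:87517127-87517186 in Gm8300, and in Eif1ax it is joined across exons. It was chosen because it holds 6 of the 16 coding positions at which the members vary.
Gm5662: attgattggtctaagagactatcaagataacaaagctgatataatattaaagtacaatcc
Gm2016: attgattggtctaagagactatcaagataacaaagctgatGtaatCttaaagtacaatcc
Gm2022: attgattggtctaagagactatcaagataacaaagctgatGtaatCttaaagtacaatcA
Gm4027: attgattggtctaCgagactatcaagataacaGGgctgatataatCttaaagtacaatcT
BB287469: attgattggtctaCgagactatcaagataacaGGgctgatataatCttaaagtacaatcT
Gm8300: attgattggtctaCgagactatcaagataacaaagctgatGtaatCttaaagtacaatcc
Eif1ax: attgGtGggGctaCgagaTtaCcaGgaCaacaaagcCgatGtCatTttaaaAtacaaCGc

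Against Gm5662 the stretch carries A271G and A276C in Gm2016, with C290A in addition in Gm2022, and A244C, A271G and A276C in Gm8300. Gm4027 and BB287469 carry the same 5 substitutions, A244C, A263G, A264G, A276C and C290T, and their whole coding sequences are identical at 432 of 432 bases. The other pairs of members were 97.2% to 99.1% identical over the coding sequence. Eif1ax differs from Gm5662 at 15 positions of the stretch and at 66 over the coding sequence.

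Over the whole transcripts, 94.4% of the 50-base words of Gm4027 and 96.6% of those of BB287469 also occur in another gene, almost all of them in each other (94.4% of the words of Gm4027 and 94.3% of those of BB287469). Gm5662 and Gm2016 form a second close pair, which shares 72.1% of the words of the former and 75.2% of those of the latter. For Gm2022 97.2% of words occur elsewhere. Gm8300 stands apart, with 26.6% of its words shared and 1339 words of its own, against 396 for Gm5662, 321 for Gm2016, 101 for Gm4027, 61 for BB287469 and 11 for Gm2022. How the authors assigned reads that match several genes is not given in the sources used here, so the split of reads within a pair is uncertain. The sum over the 6 genes and the value of Gm8300 are therefore given throughout.

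Values are normalised reads, meaning whole reads divided by the authors' size factor of the library, and 1 read equals between 0.620 and 1.81 normalised reads. Library totals were between 21059953 and 40448890 reads. Since the tables were scaled separately, levels are compared only within a table. Genes were tested with limma on log2(normalised reads + 1), a scale that understates changes of low values, and were called different where the p adjusted by Benjamini and Hochberg's method was under 0.05 and the log2 difference was 1 or more in either direction. The limma spread of a gene is 1 estimate over all groups of a table, so libraries with few reads enter comparisons that leave them out. Beside low values, ratios of reads are given with 95% intervals, which cover counting error only because the reads carry no molecular identifiers. With 2 libraries a side, an exact permutation test cannot give a 2-sided p under 0.333. Where all libraries of 1 group are above or below those of another, the share of all genes for which this holds was not counted.

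The 6 genes were nearly silent with mCherry alone and among the abundant transcripts of the culture with FL, C3+14 or C1C3a. With mCherry alone, 17 and 10 reads in all were assigned to the 6 genes, out of 31203170 and 23949774 reads, and no gene had more than 5 reads in a library. With FL the 6 genes took up 92025 and 117374 reads, 0.286% and 0.374% of the library. With C3+14 they held 0.980% and 1.06% of all reads, and with C1C3a 0.968% and 1.05%. C1C3b and C1C3c gave lower levels, and C1+14 a level close to that of mCherry.

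Summed over the 6 genes, the FL libraries had 135586 and 139720.0 normalised reads. The C3+14 libraries had 345619 and 377314, and the C1C3a libraries 348875 and 438557. The C1C3b libraries had 3469 and 3883. All 4 libraries of C3+14 and C1C3a were thus above both FL libraries, and those of C1C3b below them. The sum was 119.9 and 57.5 with C1C3c, 24.1 and 3.72 with C1+14, and 11.2 and 8.58 with mCherry. The C1C3c libraries were above all 4 libraries of C1+14 and mCherry, whose ranges overlapped. As a share of the FL mean of 137653 ± 2923 (SD, n = 2), C3+14 came to 263% ± 16.3, C1C3a to 286% ± 46.1, C1C3b to 2.67% ± 0.213, C1C3c to 0.0644% ± 0.0320, C1+14 to 0.0101% ± 0.0105 and mCherry to 0.00719% ± 0.00136. Scaled to library totals in place of the authors' size factors, the low shares were larger, at 5.07% for C1C3b, 0.148% for C1C3c, 0.0240% for C1+14 and 0.0146% for mCherry, in the same order. No p is given for the sum, since the genes in it were chosen with earlier results known, and the tests are those of the single genes.

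**Figure D1:**
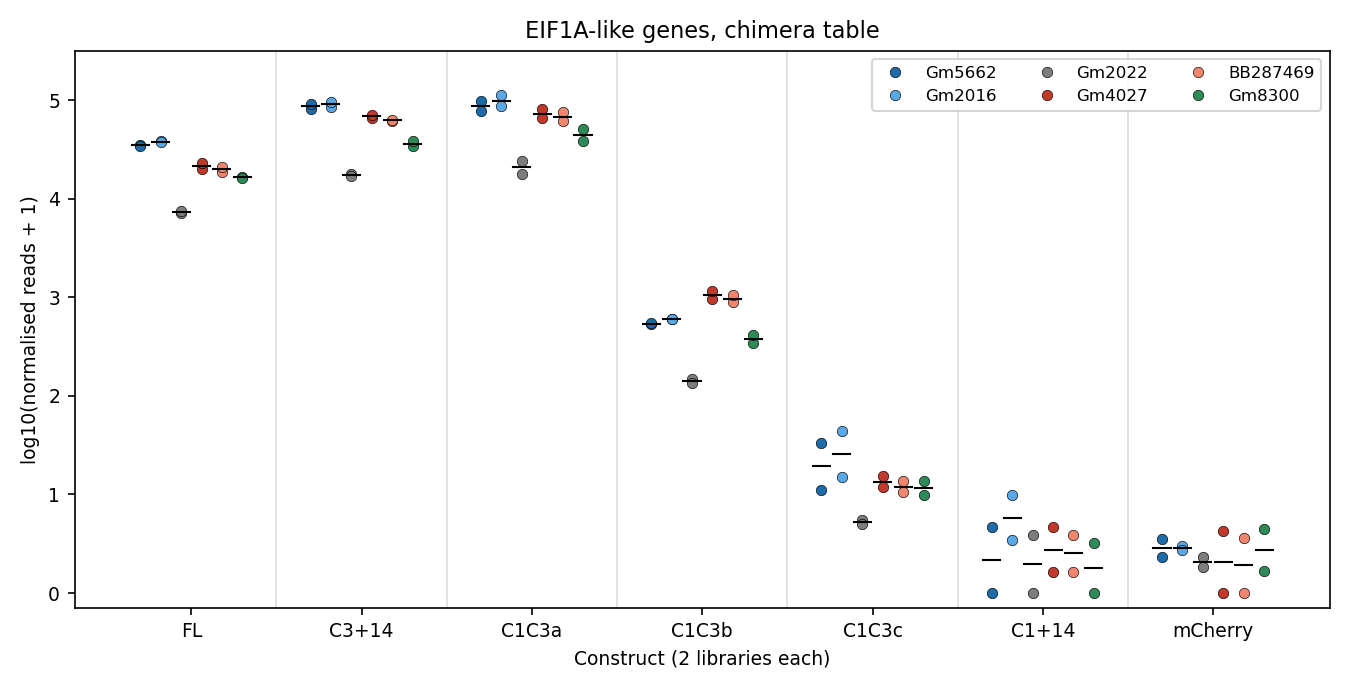
Level of each of the 6 EIF1A-like genes in the 14 libraries of the chimera table, on a log10(normalised reads + 1) axis; points are libraries, 2 per construct, and the short line is their mean on that axis. FL, C3+14 and C1C3a form the upper level, C1C3b an intermediate one with the Gm4027 and BB287469 points highest, and C1C3c lies between C1C3b and the C1+14 and mCherry libraries.

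With FL each of the 6 genes was higher than with mCherry. Gm8300, the member with the most sequence of its own, had 16645 and 16334 normalised reads with FL and 0.660 and 3.43 with mCherry. Its log2 difference was 12.57 ± 0.47 (SE, n = 2 per group, limma adjusted p = 8.65e-11), and the ratio of reads was 8834-fold (95% interval 3785 to 27209) with 5 reads in mCherry. Gm2016 had 38226 and 37442 normalised reads against 1.98 and 1.72, a log2 difference of 13.70 ± 0.44 (SE). Gm5662, the close copy of Gm2016, had 35134 and 34375 against 1.32 and 2.57. The groups did not overlap for any member, but the share of all genes without overlap was not counted.

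Gm4027 had 19895 and 22901 normalised reads with FL against 3.30 and 0, and BB287469 had 18604 and 21128 against 2.64 and 0. Gm2022 had 7082 and 7539.9 against 1.32 and 0.858. Per kilobase of annotated exon, the FL means were 21424 for Gm2016, 18888 for Gm5662, 16807 for Gm2022, 11566 for Gm4027, 10733 for BB287469 and 8804 for Gm8300. The order among the members is uncertain, since the assignment of shared reads is not known. The share of words found elsewhere runs from 26.6% for Gm8300 to 97.2% for Gm2022, whose model holds only the coding exon. On the same scale Eif1ax stood at 707 and Eif1a at 364 in the FL libraries. In mCherry the order was the reverse, with Eif1a at 1337 and Eif1ax at 459.7 normalised reads per kilobase.

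Of the 6 members, 6 were called higher in FL than in mCherry, with log2 differences of 11.78 to 13.70 and a median of 13.34, while 24.5% of the 21584 genes tested were called higher in this comparison and the median over all of them was 0.09. The ratio of the summed reads was 13692-fold (95% interval 9410.3 to 20777). The direction and the call of each member held in every alternative fit that was run, the count tests and the scaling by library totals included.

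C3+14 and C1C3a gave levels above those of FL. Against mCherry, 6 of 6 members were called higher with C3+14 (29.6% of all genes tested) and 6 of 6 with C1C3a (27.4%), by 13.03 to 15.01 and by 13.29 to 15.12 on the log2 scale. The summed reads were 35923-fold (95% interval 24690.0 to 54512) and 38554-fold (26498 to 58504) those of mCherry. These comparisons and that of FL share the mCherry libraries.

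Set directly against FL, 4 of 6 members were called higher with C3+14, where 16.8% of all genes tested were called higher. BB287469 had 60837 and 63373 normalised reads with C3+14, all above FL, a log2 difference of 1.65 ± 0.47 (SE, limma adjusted p = 0.0140). Gm4027 had 66363 and 70185, a log2 difference of 1.68 (adjusted p = 0.0235 in limma). Gm2016 rose by 1.26 and Gm2022 by 1.25 on the log2 scale. Gm8300 had 33904 and 38309, a log2 difference of 1.13 that missed the threshold (limma adjusted p = 0.0729), as did the 1.31 of Gm5662 (limma adjusted p = 0.0801). The adjusted p-values here rest on the spread over all groups of the table, those with few reads included. The groups did not overlap for any of the 6, but the share of all genes without overlap was not counted.

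Against FL, C1C3a had 5 of 6 members called higher, beside 11.0% of all genes tested. Gm8300 had 38849 and 50519.9 normalised reads with C1C3a, a log2 difference of 1.43 ± 0.47 (SE, limma adjusted p = 0.0424). BB287469 with 61626 and 74792 and Gm4027 with 66359 and 80319.9 rose by 1.78 and 1.77. Gm5662 was not called, at a log2 difference of 1.31 (limma adjusted p = 0.108). The median difference over the members was 1.47 for C1C3a and 1.29 for C3+14, and 0.01 and 0.08 over all genes tested. Leaving out any 1 of the 4 libraries left 0 or 1 member called in either comparison. An arm of 1 library was then assumed to vary like the other groups, and the log2 differences stayed close to those above, at 1.04 to 1.78 for C3+14 and 1.15 to 1.92 for C1C3a. edgeR and DESeq2 on the whole reads of all libraries called 6 of 6 in both. The share of all genes called by edgeR and DESeq2 is not given here, so these counts have no background beside them.

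C1C3a and C3+14 were not told apart at these genes. In limma 0 of 6 members were called between them, although 7.52% of all genes tested were called higher and 7.38% lower. At an unadjusted p under 0.05 there were 0 members, beside 7749 of the 21584 genes tested, and edgeR and DESeq2 each called 0. The log2 difference of Gm8300 was 0.30 with a 95% interval of -0.72 to 1.32, and that of Gm2016 was 0.12 with an interval of -0.83 to 1.08. With such intervals a difference of up to about the called size in either direction is not excluded by this fit. Its spread for Gm8300 also includes mCherry, with 0.660 and 3.43 normalised reads, and C1+14, with 2.19 and 0. The intervals are thus not those of the C3+14 and C1C3a libraries by themselves.

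**Figure D2:**
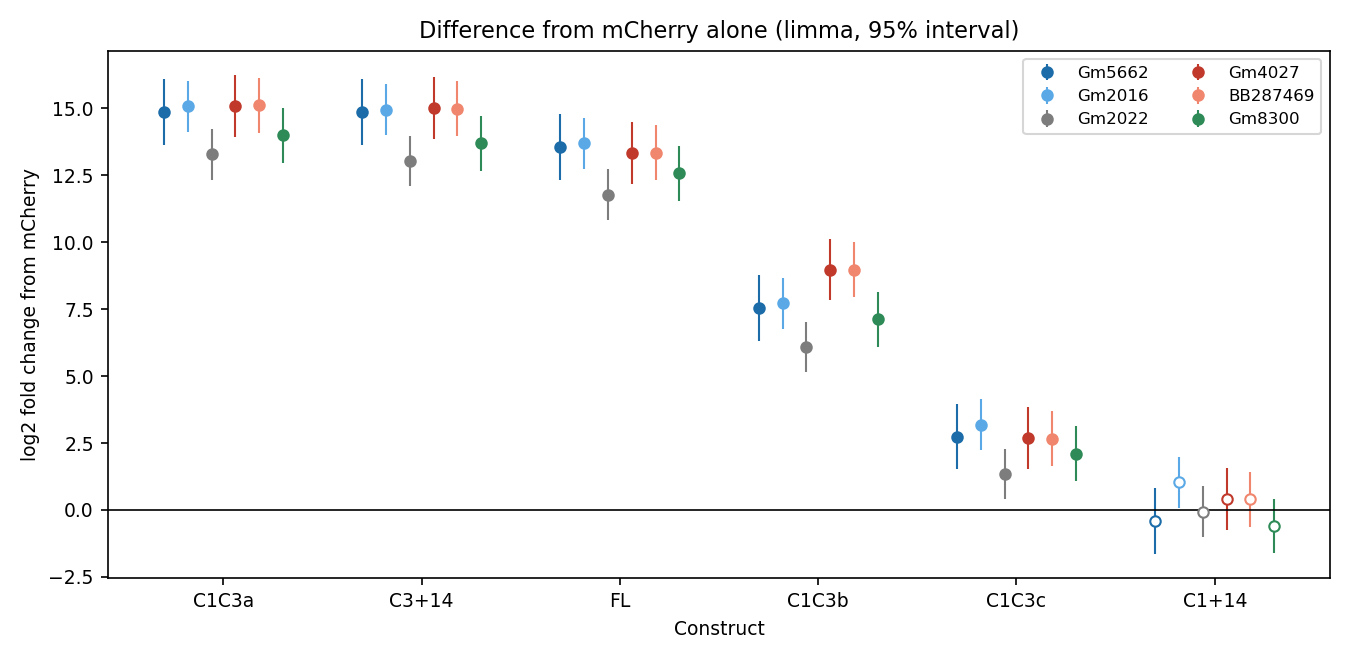
Log2 fold change of each member from mCherry for the 6 constructs of the chimera table, from limma, with 95% intervals; filled points were called and open points were not. The members lie between 11.78 and 15.12 for C1C3a, C3+14 and FL, between 6.09 and 8.98 for C1C3b, between 1.35 and 3.18 for C1C3c, and on both sides of 0 for C1+14.

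With C1C3b the genes were expressed at an intermediate level, well above mCherry and far below FL. Gm4027 had 958 and 1147 normalised reads, BB287469 888 and 1044, Gm2016 603 and 599, Gm5662 531 and 543, Gm8300 341 and 417, and Gm2022 147 and 133. Each of these libraries lay above both mCherry libraries and below both FL libraries. Against mCherry 6 of 6 members were called higher (27.6% of all genes tested), with a ratio of summed reads of 364-fold (95% interval 250.3 to 553). Against C1C3a 6 of 6 were called lower, beside 17.3% of all genes tested, and the log2 differences of -7.36 to -6.12 had a median of -7.04 where that of all genes was -0.07. FL exceeded C1C3b at 6 of 6 members, by 4.35 for Gm4027 and 6.01 for Gm5662 (19.7% of all genes were called higher there).

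C1C3c gave a trace of expression. Gm2016 had 43.0 and 14.2 normalised reads, from 57 and 21 reads, and Gm5662 had 32.4 and 10.1. Gm4027 had 14.3 and 10.8, BB287469 12.8 and 9.47, Gm8300 12.8 and 8.79, and Gm2022 4.52 and 4.06. For each gene both C1C3c libraries were above both mCherry libraries, and the first replicate was above the second. Against mCherry 6 of 6 members were called higher (18.3% of all genes tested), from 1.35 for Gm2022 (limma adjusted p = 0.0230) to 3.18 for Gm2016 (limma adjusted p = 9.16e-05). The ratio of the summed reads, 244 against 27, was 8.64-fold (95% interval 5.79 to 13.4), and 5.71-fold without the first C1C3c replicate. When only these 2 groups were fitted, 3 members were called, and edgeR and DESeq2 each called 5.

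Against C1+14, C1C3c also had 6 of 6 members called higher (5.37% of all genes tested), with a ratio of summed reads of 6.65-fold (95% interval 4.73 to 9.58). The spread between libraries is wider than that interval, with 23.4-fold without the first C1+14 replicate, 3.61-fold without the second and 4.39-fold without the first C1C3c replicate. Without the second C1+14 replicate 2 members were called, and with only the 2 groups fitted 0 were. Between C1C3c and C1C3b 6 of 6 members were called lower in C1C3c, where 7.66% of all genes tested were called lower. C1C3b exceeded C1C3c 42.2-fold in summed reads (95% interval 37.1 to 48.1), and 63.8-fold without the first C1C3c replicate.

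C1+14 was not distinguished from mCherry. Its libraries had 33 and 6 reads over the 6 genes. Gm2016 had 8.77 and 2.48 normalised reads, from 12 and 4 reads, Gm4027 had 3.65 and 0.620, and Gm8300 had 2.19 and 0. Apart from Gm2016, the libraries overlapped with those of mCherry for every member. In limma 0 of 6 members were called, beside 12.4% of all genes called higher and 5.95% called lower. At an unadjusted p under 0.05 there was 1, Gm2016, at a log2 difference of 1.04 (limma adjusted p = 0.0929), beside 8962 of the 21584 genes tested. edgeR and DESeq2 each called 0 members. The ratio of summed reads was 1.30-fold (95% interval 0.775 to 2.21). With so few reads the count depends on single libraries: without the first C1+14 replicate 3 members were called lower in C1+14 (Gm5662, Gm2022 and Gm8300), without the second 1 was called higher (Gm2016), and without the first mCherry replicate 2 were called higher (Gm4027 and BB287469). The ratio was 0.369 without the first C1+14 replicate and 2.40 without the second.

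Against C1+14 as the reference in place of mCherry, 6 of 6 members were called higher in C1C3a (23.4% of all genes tested) and in C1C3b (17.9%). The ratios of summed reads were 29672-fold (95% interval 21705 to 41727) and 280.4-fold (205 to 395). They were 104345-fold and 986-fold without the first C1+14 replicate, and 16095-fold and 152-fold without the second. In order of the summed level the chimera table thus ran from C1C3a and C3+14, not separated from each other, to FL, C1C3b, C1C3c and then C1+14 and mCherry, not separated from each other. Every other pair of neighbours in that order had members called between them.

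The split of reads among the copies differed between constructs. In FL, Gm4027 and BB287469 together held 28.4% and 31.5% of the reads of the 6 genes, and Gm5662 and Gm2016 together 54.1% and 51.4%. In C3+14 the first pair held 36.8% and 35.4%, and in C1C3a 36.7% and 35.4%. In C1C3b the first pair held 53.2% and 56.4% and the second 32.7% and 29.4%, so that the order of the pairs was turned around in both libraries. The ratio of the first pair to the second was 1.63 and 1.92 in C1C3b and at most 0.780 in the other libraries that had over 100 reads for the 6 genes.

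Within the pairs the ratio hardly moved. BB287469 had 0.895 to 0.935 times the reads of Gm4027 in all of these libraries, and Gm2016 had 1.04 to 1.33 times those of Gm5662. The difference between pairs is also seen in the fits. From C1C3a to C1C3b, the log2 difference of Gm4027 was -6.12 (95% interval -7.28 to -4.96) and that of BB287469 -6.14, while Gm2016 had -7.36 (-8.31 to -6.40), Gm5662 -7.32 and Gm8300 -6.87. The intervals overlap, and the difference between genes was not tested. Between the pairs, 6.27% to 10.3% of 50-base words are shared, so the split between pairs is less uncertain than the split within them. The shares are a description, with no test.

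**Figure D3:**
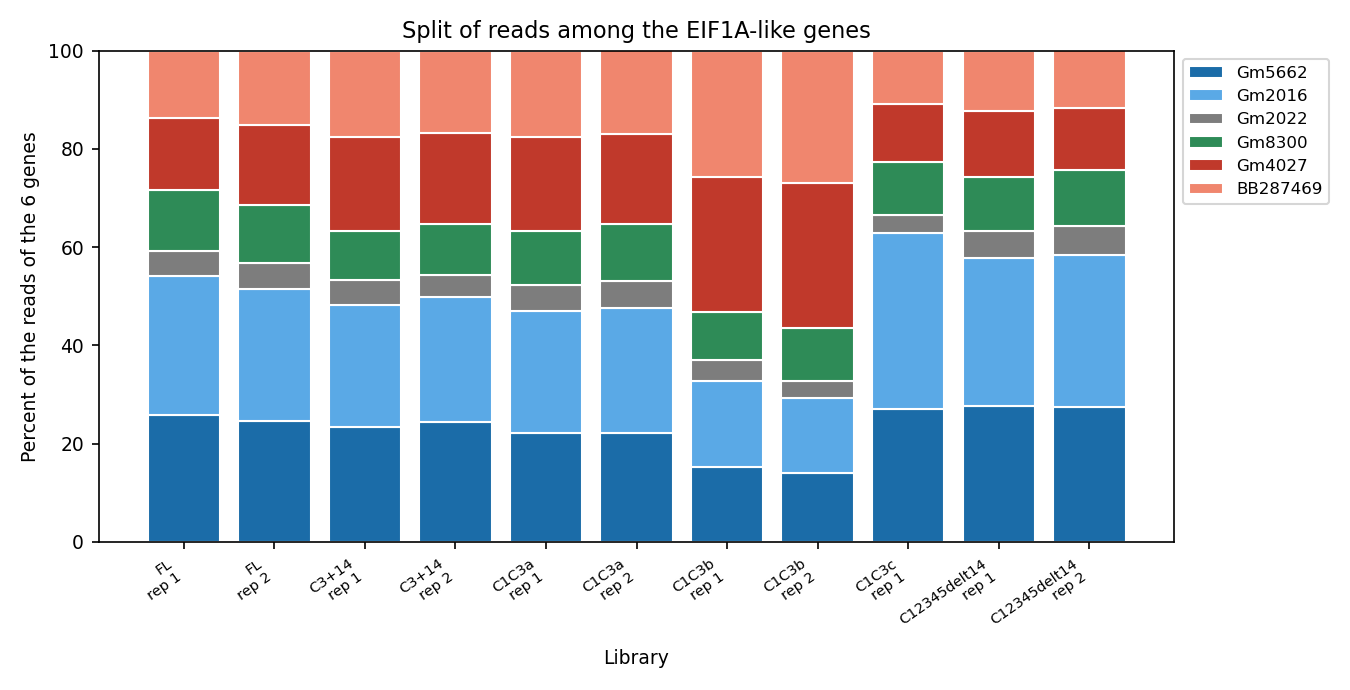
Percent of the reads of the 6 genes that fell on each gene, for every library with over 100 such reads; FL is shown from the chimera table and C12345delt14 from the deletion table. In the C1C3b bars the Gm4027 and BB287469 segments make up 53.2% and 56.4%, and in C12345delt14 25.6% and 24.2%.

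In the deletion table, C12345delt14 retained most of the expression seen with FL. The sum over the 6 genes was 93863 and 109135 normalised reads, against 166759 and 174769 in FL of the same table, that is 59.4% ± 6.32 (SD, n = 2) of the FL mean. Gm8300 had 10383 and 12456 against 20471 and 20432, and Gm2016 28447 and 33898 against 47015 and 46835. Both libraries of C12345delt14 were below both FL libraries for every member, but the share of all genes for which this holds was not counted. In limma 0 of 6 members were called, beside 0.338% of the 19833 genes tested called higher and 0.620% called lower. The log2 differences ran from -1.02 (BB287469, adjusted p = 0.250) to -0.60 (Gm2016, adjusted p = 0.636), with a median of -0.76 where all genes had -0.04. At an unadjusted p under 0.05 there was 1 member, Gm4027, with a 95% interval of -1.97 to -0.06, beside 4935 of the 19833 genes tested. edgeR called 0 members and DESeq2 called 2. Scaled to library totals instead, the sum was 85.6% of FL.

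In both groups labelled deltC12345 the genes were nearly silent. deltC12345+14 had 28 and 8 reads in all, and deltC12345delt14 had 1 and 12. Gm5662 had 0 reads in both deltC12345+14 libraries and Gm8300 had 0 in both deltC12345delt14 libraries, each of which allows up to 3 reads per library. Against FL, 6 of 6 members were called lower in deltC12345+14 (20.0% of all genes tested) and 6 of 6 in deltC12345delt14 (20.3%). FL exceeded deltC12345+14 13398-fold in summed reads (95% interval 9678 to 19131) and deltC12345delt14 31926-fold (18669 to 59961). The former was 29787-fold without the first deltC12345+14 replicate and 8716-fold without the second, and the latter 17211-fold without the first deltC12345delt14 replicate and 208503-fold without the second, whose partner had 1 read. For Gm5662, FL was at least 20241-fold higher than deltC12345+14, and for Gm8300 at least 8265-fold higher than deltC12345delt14, with the floor of 3 reads per library. The median log2 ratio of reads over the members, with these genes at their bound, was 13.57 and 14.76.

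C12345delt14 and deltC12345delt14 differ in the labels by the prefix on C12345, and 6 of 6 members were called higher in the former (12.6% of all genes tested), with a ratio of summed reads of 19167-fold (95% interval 11208 to 35998), or 10333-fold without the first deltC12345delt14 replicate and 125177-fold without the second. deltC12345+14 and deltC12345delt14 differ by the prefix on 14. Between them limma called 0 of 6 members and 0 of the 19833 genes tested (0%), with 3 members and 543 genes at an unadjusted p under 0.05, and edgeR and DESeq2 each called 0 members. Gm8300, Gm4027 and BB287469 were the 3, each higher in both deltC12345+14 libraries than in both of deltC12345delt14, with log2 differences of 1.35, 1.40 and 1.64 (limma adjusted p = 1.00 for each). The ratio of summed reads, 36 against 13, was 2.38-fold (95% interval 1.23 to 4.90), but the sums overlapped (28 and 8 reads against 1 and 12). Leaving out 1 library moved that ratio to 1.07 without the first deltC12345+14 replicate, 3.66 without the second, 1.28 without the first deltC12345delt14 replicate and 15.6 without the second.

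**Figure D4:**
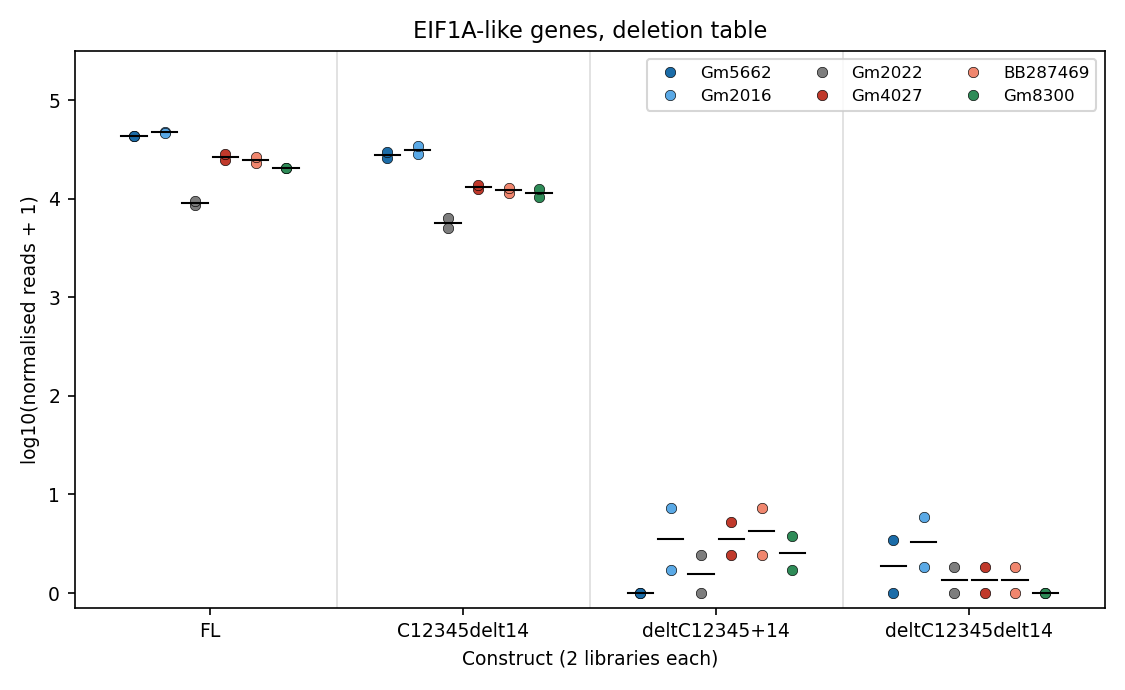
Level of each member in the 8 libraries of the deletion table, on a log10(normalised reads + 1) axis; points are libraries, 2 per construct, and the short line is their mean on that axis. C12345delt14 lies just below FL for every gene, and both deltC12345 groups lie at or near 0.

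The libraries are of 2 kinds in the share of reads that fell on 1610 genes at least 50% of whose 50-base words occur in 20 or more genes; none of the 6 members is among these (0 of 1610). The share was 0.291% to 0.419% in C3+14, mCherry, the second deltC12345+14 replicate and the first deltC12345delt14 replicate, and 1.66% to 2.58% in all others. The members were high in both kinds, at 251% and 274% of FL in the C3+14 libraries with 0.291%. At the low end the library with the higher share had the more member reads in each deltC12345 group, 28 against 8 and 12 against 1. Each of these groups thus mixes the 2 kinds, which the fits did not model. In the chimera table C3+14 and mCherry differ in kind from FL, C1C3a, C1C3b, C1C3c and C1+14. The comparisons of C3+14 with FL and with C1C3a are among those so affected. The part that kind has in these comparisons, and in the differences of a few reads, was not tested.

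The cells carried the defining transcripts of embryonic stem cells in every group. Over 8 such genes (Pou5f1, Sox2, Nanog and others), the summed level was 70484 to 70815 normalised reads with mCherry alone and 34653 to 45662 with FL, then 37739 to 41548 (C3+14), 46001 to 53072 (C1C3a), 22736 to 24902 (C1C3b), 31286 to 48884 (C1C3c) and 45068 to 48002 (C1+14). Over 7 fibroblast genes it was 35.4 to 183 in the chimera table. Postn, Lum and Dcn were at 0 in both mCherry libraries, where the sum was 61.4 to 78.9. In C3+14 (149 to 178), C1C3b (172 to 183) and C1+14 (59.9 to 102) no gene of the 7 was at 0 in both libraries. A list of 6 trophectoderm genes stood at 1652 to 1754 in mCherry and 134 to 206 in FL, and a list of 6 primitive endoderm genes at 179 to 185 and 155 to 193, with 674 to 729 in C3+14. A list of 6 other genes of the 2-cell embryo, Zscan4c among them, had 725112 to 1355144 with FL and 724971 to 792252 with C3+14, then 323957 to 476214 (C1C3a), 13384 to 18930.1 (C1C3b), 823 to 897 (C1C3c), 4.96 to 11.0 (C1+14) and 0.660 to 0.858 (mCherry). These levels move with the constructs beside the members, and their part in the results was not tested. In bulk RNA, more cells that express a gene and more RNA per cell cannot be told apart.

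The 10 other EIF1A-like genes of the same region followed the 6 in the groups with high levels. Of them 10 of 10 were called higher than mCherry in FL, C3+14, C1C3a and C1C3b, where 24.5% to 29.6% of all genes were. The abundant ones were Gm5039, at 24894 normalised reads in FL and 54562 in C1C3a, and Gm8332, at 23810.4 and 58412. With C1C3c 3 of 10 were called, Gm8332, Gm16368 and Gm5788, beside 18.3% of all genes. With C1+14 1 of 10 was called, Gm16368, at 8.77 and 3.10 normalised reads against 0 and 2.57, and this share is below the 12.4% of all genes. Against FL, 1 of 10 (Gm8332) was called higher with C3+14, a share below the 16.8% of all genes, and 6 of 10 with C1C3a, beside 11.0% of all genes. None of the 10 was called between C12345delt14 and FL, with log2 differences of -1.01 to -0.62.

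Eif1a was lower with FL than with mCherry. It had 5772 and 5373 normalised reads in mCherry and 1357 and 1678 in FL, and its log2 difference was -1.88 ± 0.18 (SE, adjusted p = 1.21e-06 in limma). It also fell in C1C3b by 1.54, in C3+14 by 1.29 and in C1C3a by 1.01. The last call was lost with size factors from genes with little shared sequence, at -0.81, and in DESeq2, just short of the called size. With C1C3c and C1+14 its log2 differences of -0.57 and -0.70 were below the called size. These levels did not run in the order of those of the 6 genes. The difference from mCherry was larger in C1C3b, with a sum at 2.67% of FL, than in C1C3a, with 286%. Set directly against C1C3a, Eif1a in C1C3b had a log2 difference of -0.54 (limma adjusted p = 0.0214), below the called size. In the deletion table Eif1a was higher than in FL by 1.32 in both deltC12345 groups, and both calls share the FL libraries. With C12345delt14 it had 2868 and 3932 normalised reads, which were above FL by 0.84 (limma adjusted p = 0.0666, not called) and below both deltC12345 groups by a log2 difference of -0.48 (adjusted p = 0.0848 and 0.0814 in limma, not called). Eif1a shares 50-base words with all 6 members, so reads from the members may have been counted there or left out there.

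Eif1ax had 2474 and 2368 normalised reads in mCherry and 4417 and 3029.5 in FL. Its log2 difference of 0.60 was below the called size (limma adjusted p = 0.00522), and it was called in no comparison of the chimera table with mCherry. Eif1ad, which encodes a protein with an EIF1A-like domain, fell by 1.44 in C1C3b, 1.24 in C1C3c and 1.01 in C1+14. Eif1 and Eif1b, which encode the partner factor in start codon selection, were called in none of the 6 comparisons with mCherry.

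**Figure D5:**
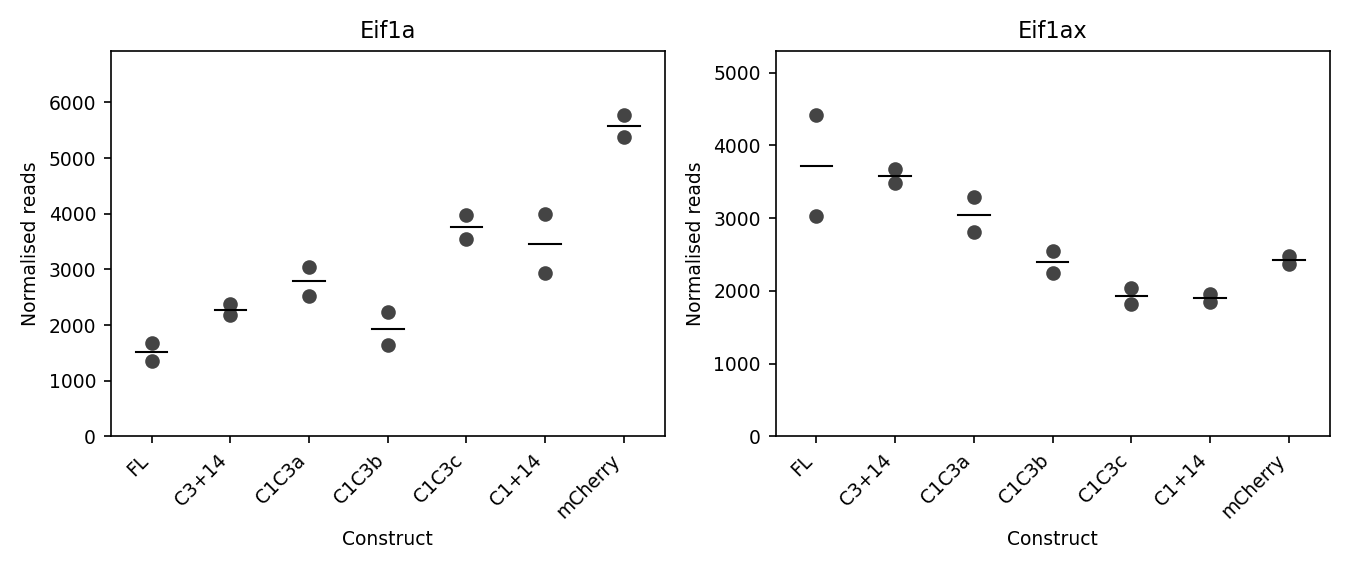
Normalised reads of Eif1a (left) and Eif1ax (right) in the 14 libraries of the chimera table, on linear axes from 0; points are libraries and lines the means of 2. Eif1a is highest in mCherry (5373 and 5772) and lowest in FL (1357 and 1678), and Eif1ax varies from 1823 to 4417.

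The general translation initiation genes included calls in both directions, and their share varied with the reference and the construct. Of a list of 50, 49 passed the filter in the chimera table, and 5 were called higher and 4 lower in FL than in mCherry, 10.2% and 8.16% of the list against 24.5% and 19.6% of all genes tested. Against C1+14 the shares called higher with FL, C3+14 and C1C3a were above those of all genes. They were 19 with FL (38.8% against 21.5%), 20 with C3+14 (40.8% against 25.9%) and 20 with C1C3a (40.8% against 23.4%). With C1C3b and C1C3c they were below, at 1 gene each (2.04% against 17.9% and 2.04% against 5.37%). Eif3f, which encodes a subunit of the EIF3 scaffold, rose by 1.52 from mCherry to FL, the largest rise of the list, and Eif1a had the largest fall. Against mCherry, C3+14 had 9 higher and 3 lower (18.4% and 6.12%, all genes 29.6% and 17.7%), and C1C3a 7 and 4 (14.3% and 8.16%, all genes 27.4% and 19.0%). C1C3b had 0 and 6 (0% and 12.2%, all genes 27.6% and 17.1%). C1C3c and C1+14 each had 0 and 3 (0% and 6.12%), where all genes had 18.3% and 10.5% with C1C3c and 12.4% and 5.95% with C1+14. In each deltC12345 group 13 of 50 were called lower than in FL (26.0%, all genes 20.0% with deltC12345+14 and 20.3% with deltC12345delt14), and 0 of 50 were called with C12345delt14. The list median lay between -0.47 (C1+14) and 0.51 (FL) in the 6 comparisons with mCherry.

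Likeness of pattern was ranked among 15854 tested genes with a mean of at least 50 normalised reads in 1 or more groups of the chimera table, EIF1A-like genes left out. The gene whose group means followed the members' sum most closely over the 7 groups was B020031M17Rik, with a Pearson's r of 0.9993 between group means of log2 values. Its means were 18103 normalised reads with FL, 43088 with C3+14, 36631 with C1C3a, 358 with C1C3b and 12.4 with C1C3c, and it had 0 with C1+14 and mCherry. Gm21731 followed with r = 0.9976, at 4751 in FL and 13881 in C1C3a. Next came Rpl5-ps1 (0.9975), Obox4-ps35 (0.9971) and Cenpw (0.9970). The correlation does not depend on the size of the range: the group means ran only from 1623 to 4179 normalised reads for Rpl5-ps1, a processed pseudogene, and from 601 to 1139 for Cenpw, which encodes a centromere protein. Many genes came close to these 5, with 58 of the 15854 at an r above 0.99 over 7 points, so the ranking is a description with no test.

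Promoter sequence was at hand for 2 of the 6 members, Gm4027 and BB287469. The 250 bases upstream of BB287469 are shown (RefSeq, GRCm38.p6, chr12:87816327-87816576, plus strand). Capitals mark a match to TGATTNAAT, which followed by CA is a form in which the DUX recognition motif is given.
BB287469 promoter: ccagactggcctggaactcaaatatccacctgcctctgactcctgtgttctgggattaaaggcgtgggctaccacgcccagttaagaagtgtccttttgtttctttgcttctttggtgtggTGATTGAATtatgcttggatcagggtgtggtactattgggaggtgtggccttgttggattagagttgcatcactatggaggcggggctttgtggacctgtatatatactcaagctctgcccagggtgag

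The match begins 129 bases before the RefSeq start of BB287469 and 170 before that of Gm4027, whose window overlaps by 209 bases and is identical there at 209 of 209. On either strand, TGATTNAAT occurred in 3 of the 5 promoters found for EIF1A-like genes of this region (Gm4027, BB287469 and Gm21319) and in 216 of 32851 promoters of the same length in all, 0.658%. The longer form with CA at its end occurred in 0 of the 5 and in 10 of the 32851, 0.0304%. The shorter motif lies within the longer, the search was chosen after the promoters had been seen, and a match is a description of letters, not a binding site.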

How the data were processed

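Poly(A) RNA of 22 samples in 11 groups was sequenced from TruSeq stranded libraries made from 500 ng of total RNA, per the labels' protocols. The deposited values are a signal, read counts per gene divided by the authors' size factor, per the file headers and the values: 100.0% of 1220714 values were whole reads within 0.01 once divided by 1 step per column. Trim Galore 0.5.0, FastQC, DESeq2 and mm10 are named in the submitters' processing notes. Aligner, counting and annotation are not given in the sources used here. FL reads differed at 0 genes between the tables, so these are the same libraries.

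Genes that reached 10 normalised reads in 2 or more libraries were tested with limma 3.58.1 (R 4.3.3, lmFit and eBayes with trend) on log2(value + 1), all groups of a table in 1 fit, with Benjamini-Hochberg adjustment over all genes tested. edgeR 4.0.16 and DESeq2 1.42.0 on recovered reads, other pseudocounts, filters, scalings, left-out libraries and a replicate block were alternatives, and left-out libraries for the ratios of summed reads were added after seeing the data. Ratios of reads have exact 95% binomial intervals for 2 Poisson counts. The fits were tested on simulated data. Counts of members called in the alternatives are given without the share of all genes. Of the identifiers, 55141 of 55487 matched a GENCODE M21 symbol. Other EIF1A-like genes are those whose translated GENCODE protein is at least 60% identical to EIF1A or EIF1AX over at least 80% of its length. The named genes are the 6 members, Eif1a, Eif1ax, Eif1ad, Eif1 and Eif1b, up to 5 other EIF1A-like genes of highest mean, and the 5 genes most alike in pattern. Gm16368 and Gm5788, and Eif3f, were named after their values were seen. The members and lists were chosen with earlier results of these data known.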

Additional observations from a re-analysis of the deposited data

How the results depend on the processing

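The number of called members was 6 under every alternative run for FL, C3+14, C1C3a and C1C3b against mCherry, C1C3a and C1C3b against C1+14, C1C3b against C1C3a, C1C3c against C1C3b, both deltC12345 groups against FL, and C12345delt14 against deltC12345delt14. It was 0 under every alternative for C1C3a against C3+14 and for deltC12345+14 against deltC12345delt14. For C1C3c minus mCherry, fitting only the 2 groups gave 3. For C1+14 minus mCherry, quantile normalization gave 1 and leaving out 1 library gave 0 to 3. For C3+14 minus FL, a pseudocount of 0.1 gave 0, no filter 1, and leaving out 1 library 0 to 1; for C1C3a minus FL these were 0, 1 and 0 to 1, and quantile normalization gave 1. For C1C3c minus C1+14, a pseudocount of 0.1 gave 3, fitting only the 2 groups 0, and leaving out 1 library 2 to 6. For C12345delt14 minus FL, a pseudocount of 8, fitting only the 2 groups and DESeq2 each gave 2. The cause was not tested. With 1 to 33 reads over the 6 genes in the C1+14, mCherry and deltC12345 libraries, differences of a few reads were not detectable at this depth.

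With scaling by library totals the median of all genes went as far as -0.90 against mCherry (FL) and 1.18 against FL (deltC12345+14). On the authors' scaling these medians were 0.09 and -0.08. As a percent of FL the sum was then 308 for C3+14, 5.07 for C1C3b, 0.148 for C1C3c, 0.0240 for C1+14, 0.0146 for mCherry, 85.6 for C12345delt14 and 0.0169 for deltC12345+14. The same scaling reversed Eif1 (1.10) and Eif1b (1.15) in deltC12345+14 minus FL, and Eif1ad (1.12), Eif1 (1.02) and Eif1b (1.08) in deltC12345delt14 minus FL. On the authors' scaling, leaving Gm2016 out of the sum raised C1C3b from 2.67% to 3.08% of FL.

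Leaving out 1 library at a time, chosen after seeing the data, gave these ranges for the ratio of summed reads. Against mCherry it was 12292 to 16072 for FL, 32249 to 42169 for C3+14, 34611 to 45257 for C1C3a, 327 to 428 for C1C3b, 5.71 to 11.9 for C1C3c and 0.369 to 2.40 for C1+14. Against C1+14 it was 16095 to 104345 for C1C3a, 152 to 986 for C1C3b and 3.61 to 23.4 for C1C3c, and C1C3b to C1C3c gave 30.6 to 63.8. FL gave 8716 to 29787 against deltC12345+14 and 17211 to 208503 against deltC12345delt14, C12345delt14 gave 10333 to 125177 and deltC12345+14 1.07 to 15.6 against deltC12345delt14.

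Deviations of same-numbered libraries correlated at -0.0774 (C1C3a with FL) to 0.135 (C12345delt14 with FL), except between the 2 deltC12345 groups. There the correlation was -0.574, and libraries of the same kind carry different numbers. The low share was in the second deltC12345+14 replicate (0.391%) and the first deltC12345delt14 replicate (0.419%). The fits did not model kind, and its part in the spread of that comparison was not tested. With a replicate block, 4 members were called in C1C3a minus FL in place of 5, and the other counts were the same, 4 in C3+14 minus FL and 0 or 6 elsewhere.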
